A study of Mus musculus with 27 samples.

Results

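The comparison set 3 thymus arrays against 3 testis arrays, 6 of the 27 arrays in a study of 9 mouse tissues with 3 samples each. The samples were chosen by their tissue labels alone. Both organs came from wild-type C57BL/6 males aged 6 to 8 weeks, with no treatment, transgene or mutation, and so did the other 7 tissues (spleen, lymph node, bone marrow, lung, kidney, liver and brain). Biotin-labelled copies of the RNA were read on a custom Affymetrix array for glycogenes, the genes that build, modify, degrade or bind glycans, together with cytokines, growth factors and adhesion molecules. The labels do not say whether a sample was 1 animal or a pool, so the p-values below measure only the spread between these samples. For the comparison, 573 mouse genes were measured, each by 1 probe set, the one with the highest mean over the 27 arrays. Levels are the deposited linear intensities, which can be compared between arrays for 1 gene but not between genes.

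The thymus is the organ in which T cells mature. Precursors enter from the blood, divide, and move through the cortex and medulla along chemokines made by the stroma. Testes hold seminiferous tubules, where germ cells divide and differentiate beside Sertoli cells, with Leydig cells and blood vessels between the tubules. Cells in both organs carry glycans that differ in their terminal sugars. Sialyltransferases add sialic acid at chain ends, polypeptide GalNAc transferases start mucin-type O-glycans on serine or threonine, and fucosyltransferases add fucose.

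The median over all 1813 probe sets lay between 223.1 and 231.9 on the thymus arrays and between 229.5 and 243.7 on the testis arrays, with testis replicate 1 the highest. Each of the 6 arrays resembled its own tissue best. Across genes, the thymus arrays correlated with one another at 0.976 to 0.988 and the testis arrays at 0.934 to 0.962, and the 2 lower testis values were those of replicate 1. The array also carried 839 probe sets for human genes, whose median on the 6 arrays, 210.8, served as a guide to the level of unspecific signal. In thymus that median was 200.2, and in testis 222. The 95th percentile of the human probe sets on the 6 arrays was 605.1, so levels above the median can be unspecific too. The number of arrays, 3 per organ, limits the precision of every difference.

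Of the 573 genes, 77 (13.4%) were called higher in thymus than in testis and 20 (3.49%) were called lower. A call needed an adjusted p under 0.05 in limma and a difference of at least 1 on the log2 scale, thymus minus testis. The 3 thymus arrays lay wholly above the 3 testis arrays for all 77 higher genes and wholly below them for 19 of the 20 lower genes, while among all 573 genes such separation upwards was seen in 28.6% and downwards in 23.0%. The exception was Hk1, described below. The median fold was 3.45 among the higher genes and 3.49 among the lower genes. A change of over 4-fold was found for 35 higher and 9 lower genes. For 34 of the higher and 9 of the lower genes the dimmer organ lay under the human probe set median, and their folds are less certain in size. The median gene differed by -0.01 on the log2 scale, and 397 genes differed by less than 0.5 in either direction. Without testis replicate 1 the counts were 77 higher and 22 lower, of which 74 and 19 were the same genes. Quantile normalization of the arrays gave 74 higher and 35 lower genes, so the balance between the directions depends on the scaling.

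**Figure D1:**
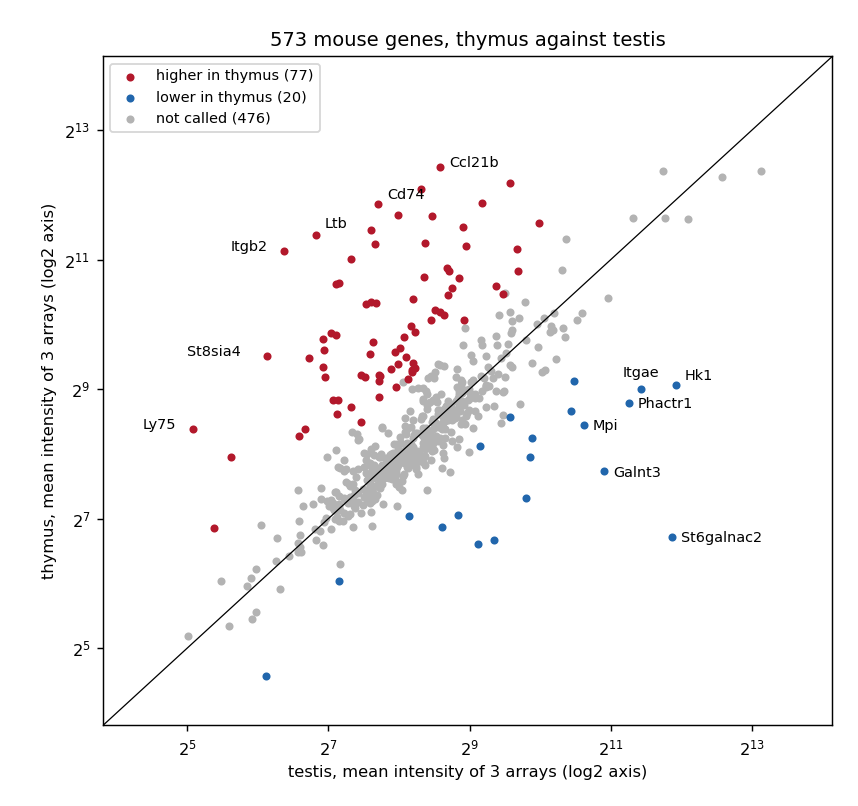
Mean intensity of 573 mouse genes in thymus (vertical axis) and testis (horizontal axis), both log2 axes, 1 point per gene and 3 arrays per organ, with the diagonal drawn. The 77 genes called higher in thymus (red) include Itgb2, Ltb and Cd74 at the upper left, and of the 20 called lower (blue) St6galnac2 lies farthest from the diagonal.

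Genes of T cells and of the thymic stroma made up the clearest group among the higher genes. All 5 measured T cell and thymocyte markers rose, and so did 4 of 5 thymic stroma markers. The median difference was 2.08 for the T cell markers and 3.70 for the stroma markers, against -0.01 over all genes. The summed level of the T cell markers ran from 6679 to 9899 on the thymus arrays and from 1351 to 1492 on the testis arrays. For the stroma markers it ran from 10387 to 15298 in thymus and from 955.2 to 1088 in testis. Thymus replicate 1 had the highest sum of both lists. In whole-organ RNA, fewer cells of a type and less RNA per cell cannot be told apart.

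Ccl25 and its receptor Ccr9 are a chemokine pair that guides T cell precursors within the thymus. Ccl25 had 3532, 2470 and 2380 on the thymus arrays, against 225.3, 166.0 and 189.3 on the testis arrays, a difference of 3.84 ± 0.14 (SE) on the log2 scale (limma, adjusted p = 5.16e-17). Ccr9 read 2135, 1708 and 2345 in thymus and 154.5, 170.5 and 152.7 in testis, 3.68 ± 0.14 on the log2 scale (adjusted p = 1.41e-16). The arrays of the organs were far apart for both genes, and thymus had the highest mean of the 9 tissues for both. The next highest tissue for Ccr9 was lymph node, at 226.3. For Ccl25 it was testis itself, at 193.5, which is below the human probe set median.

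Cxcl12, a chemokine made by stromal cells, measured 4041, 2934 and 2954 in thymus against 272.8, 245.9 and 239.6 in testis (12.97-fold, adjusted p = 1.32e-13). Ccl21b, a chemokine for cells bearing Ccr7, had 7155, 4944 and 4513 in thymus and 364.1, 343.6 and 440.1 in testis (14.3-fold, adjusted p = 4.15e-16). The mouse genome holds near-identical copies of the Ccl21 gene, and which of them this probe set reads was not tested. Thymus replicate 1 was the brightest thymus array for both genes, and every thymus array was above every testis array. Ly75, an endocytic receptor of cortical epithelium and dendritic cells, gave 332.0, 342.0 and 326.7 in thymus and 37.46, 32.08 and 31.99 in testis (9.88-fold), with hardly any spread in either organ. The fold for Ly75 was 5.21 when intensities under 64 were raised to 64. The fifth stroma marker, Il7, the survival cytokine of thymocytes, had 222.1 ± 13.8 (SD, n = 3) in thymus and 180.7 ± 11.4 in testis and was not called (limma, adjusted p = 0.0789).

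The other 4 T cell markers rose 3.09- to 7.16-fold. Cd27, a costimulatory receptor, had 3376, 1704 and 2282 in thymus, against 338.8, 360.9 and 292.1 in testis. Its level in thymus was the highest of the 9 tissues. Cd2, an adhesion receptor of T cells, read 2370, 1654 and 1392 in thymus and 489.5, 411.6 and 359.5 in testis. For both, no array of one organ reached the range of the other. Il7r, the receptor for Il7, was 1008 ± 139 (SD, n = 3) in thymus and 288.7 ± 12.1 in testis. Ccr7, the receptor that draws cells to the medulla, was 760.9 ± 93.6 in thymus and 245.5 ± 16.4 in testis.

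Sequences from 250 bases before to 50 bases after the start of 3 genes are given here from RefSeq (GRCm38.p6), to show the starts of called genes of either direction: Ltb has the largest rise and Galnt3 the largest fall among genes with an entry, and Ccr9 is the receptor described above. They are written 5′ to 3′ on the strand of the gene, and capitals mark matches, on either strand, to motif letters spelled out below. Ltb lies at chr17:35194257-35194556 on the plus strand, Ccr9 at chr9:123766961-123767260 on the plus strand and Galnt3 at chr2:66124744-66125043 on the minus strand.
Ltb: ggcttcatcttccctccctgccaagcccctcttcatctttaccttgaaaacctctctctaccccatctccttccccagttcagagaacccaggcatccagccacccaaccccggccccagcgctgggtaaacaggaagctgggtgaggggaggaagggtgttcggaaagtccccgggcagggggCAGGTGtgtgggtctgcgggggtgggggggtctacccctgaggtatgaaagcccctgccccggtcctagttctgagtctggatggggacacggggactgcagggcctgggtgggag
Ccr9: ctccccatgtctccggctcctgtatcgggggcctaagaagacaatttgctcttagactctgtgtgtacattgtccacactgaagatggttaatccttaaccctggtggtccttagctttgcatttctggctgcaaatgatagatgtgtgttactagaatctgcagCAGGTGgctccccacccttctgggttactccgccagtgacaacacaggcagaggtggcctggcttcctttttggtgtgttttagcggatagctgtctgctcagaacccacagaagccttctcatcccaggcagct
Galnt3: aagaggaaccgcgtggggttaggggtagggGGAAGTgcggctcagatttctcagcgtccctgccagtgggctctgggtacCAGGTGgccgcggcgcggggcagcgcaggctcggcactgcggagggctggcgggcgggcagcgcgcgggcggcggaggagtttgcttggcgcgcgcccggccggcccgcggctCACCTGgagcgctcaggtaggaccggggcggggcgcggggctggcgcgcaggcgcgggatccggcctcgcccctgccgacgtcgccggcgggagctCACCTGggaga

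The letters searched were TGTGGT (RUNX core), GGAAGT (ETS core), TGACGT (CRE core) and CAGGTG (E-box), each on both strands, and no matches overlapped. The E-box letters were added after these sequences had been seen. Ltb held 1 E-box from base 185, Ccr9 held 1 E-box from base 166, and Galnt3 held 1 ETS core from base 31 with E-boxes from bases 81, 194 and 290. Among 32851 promoter windows of this length, 16.8% held the RUNX core, 23.8% the ETS core, 7.51% the CRE core and 20.2% the E-box. An entry was found for 54 of the 77 higher genes and 18 of the 20 lower genes. The E-box stood in 7 of 54 windows of higher genes and 6 of 18 windows of lower genes, the ETS core in 12 and 6, the RUNX core in 7 and 1, and the CRE core in 4 and 0. A match says only that these letters stand in the window.

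Of 20 measured genes of the tumour necrosis factor family and of lymphocyte costimulation, 7 rose and none fell. The median was 0.05 over the list, and over all genes 13.4% rose and 3.49% fell. Ltb, the membrane anchor of lymphotoxin, which organises lymphoid tissue, measured 3366, 2385 and 2258 in thymus and 114.4, 105.9 and 119.3 in testis (4.54 ± 0.16 on the log2 scale, adjusted p = 4.64e-17). Cd74, the invariant chain of MHC class II molecules, had 3923, 3686 and 3467 in thymus against 217.5, 163.9 and 242.6 in testis (18.0-fold, adjusted p = 1.25e-14). The testis arrays stood at about the human probe set median for Cd74 and below it for Ltb. Cd48, a ligand for Cd244, gave 2029, 1323 and 1413 in thymus and 144.4, 131.0 and 151.8 in testis (10.97-fold). Cd83, a marker of mature dendritic cells (6.62-fold), the death receptor Fas (5.39-fold) and Tnfrsf1b (2.05-fold) also rose and were named after their values were seen.

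Leukocyte adhesion genes formed the largest group. Of 22 integrin subunits and leukocyte adhesion molecules, 9 rose and 1, Itgae, fell, and the median was 0.77. Over all genes, 13.4% rose and 3.49% fell. Itgb2, the beta chain shared by the leukocyte integrins, had 2488, 2050 and 2171 in thymus, against 73.02, 88.16 and 88.26 in testis (26.9-fold, 4.75 ± 0.15 on the log2 scale, adjusted p = 1.86e-17). The testis arrays were far under the human probe set median, so the size of the fold is uncertain. Its partner Itgal, which forms LFA-1 with it, measured 694.3, 897.0 and 1154 in thymus and 146.6, 135.8 and 130.4 in testis (6.52-fold). Both subunits were separated by organ on every array. Icam2, a ligand of LFA-1 found on endothelium and lymphocytes, had 2021, 1396 and 1329 in thymus against 137.0, 136.7 and 140.3 in testis (11.3-fold). Pecam1, an adhesion molecule of endothelium, was 4.98-fold higher. Its testis mean, 48.99, was far under the human probe set median, so the size of that fold is uncertain. Cd44, the hyaluronan receptor, was 2.83-fold higher. Itgb1 (3.67-fold), Vcam1 (3.34-fold) and Itga6 (3.31-fold) completed the group and were named after their values were seen. Selplg, the main ligand of P-selectin, was the only one of 11 selectin genes called, with 3820, 3051 and 2919 in thymus against 414.8, 346.1 and 301.7 in testis (9.23-fold).

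**Figure D2:**
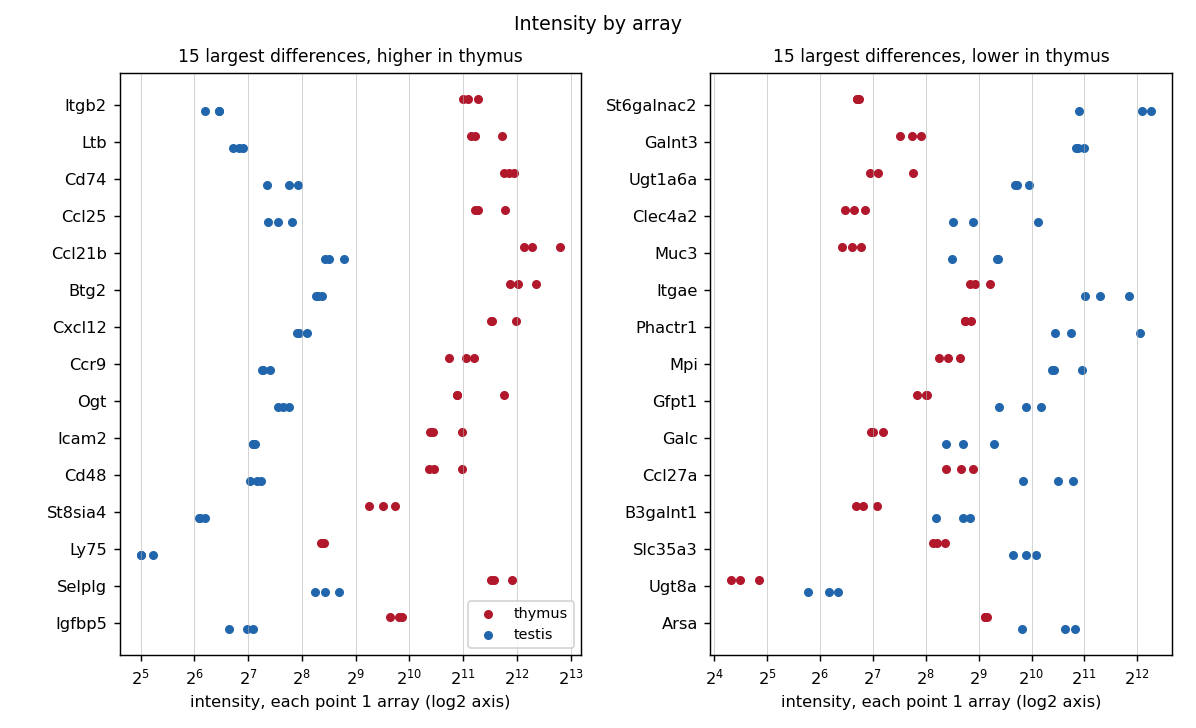
Intensity on a log2 axis for the 15 genes with the largest differences higher in thymus (left panel) and lower in thymus (right panel) among those whose arrays do not overlap, 1 point per array, with the 3 thymus arrays (red) drawn just above the 3 testis arrays (blue) in each row. The red and blue points of every row are apart, most of all for St6galnac2 (107.5, 103.7 and 104.1 in thymus, 1910, 4352 and 4905 in testis).

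Of 28 interleukins and receptors, 5 rose and none fell, with a median of 0.01, and the share that rose was near the 13.4% over all genes. Il17ra, a receptor chain for interleukin 17, had 924.0, 910.6 and 977.1 in thymus and 135.0, 130.7 and 127.0 in testis (7.16-fold). Its mean was highest in thymus (937.2), but bone marrow had 930.4 and the arrays of these tissues overlapped. Il16, a T cell chemoattractant, rose 6.27-fold, Il7r 3.47-fold and Il2rb, a chain of the interleukin 2 receptor, 2.68-fold. Il10ra, named after its values were seen, rose 2.09-fold, but its other probe set differed by only 0.07 on the log2 scale. Of 31 transforming growth factor beta family genes only Tgfb1 was called, with 554.6, 802.3 and 775.8 in thymus against 72.47, 129.2 and 116.2 in testis (6.82-fold). Of 7 genes of the insulin-like growth factor axis 2 rose, where 13.4% rose over all genes. Igfbp5, a binding protein, had 896.5, 797.5 and 924.9 in thymus and 135.7, 126.9 and 100.2 in testis (7.26-fold), and Igf1 rose 3.36-fold. Among 23 neurotrophic and stem cell factors, Flt3l, a growth factor of dendritic cell precursors, rose 2.77-fold and Lif fell by 1.01 on the log2 scale. The call of Lif held in 11 of 16 alternative settings and was lost with median centring (-0.95), among others.

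Of 29 chemokines, 5 rose and 1 fell, shares near the 13.4% and 3.49% over all genes, and the median was 0.06. Besides Ccl25, Ccl21b and Cxcl12, the called ones were Ccl5 (6.85-fold), and Cxcl10 (3.23-fold, named after its values were seen). Ccl5 is a chemokine of activated T cells, and its other probe set went the other way, at -0.32 on the log2 scale. Averaging its probe sets gave a fold of 2.34. The chemokine that fell was Ccl27a. Of 15 chemokine receptors, 3 rose and none fell, where 13.4% rose over all genes. Those that rose were Ccr9, Ccr7 and Ccr2, a receptor of monocytes. Ccr2 was dim in both organs, with 113.8, 124.5 and 108.3 in thymus and 49.73, 41.05 and 34.34 in testis, and was not called when values under 64 were raised to 64 (0.85 on the log2 scale). Of 26 fibroblast growth factors and receptors Fgf12 alone was called, falling by 1.10 on the log2 scale (-0.94 and not called with an offset of 16), and of 22 Wnt and Frizzled genes none was.

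Markers of other cell types gave a mixed picture, where over all genes 13.4% rose and 3.49% fell. None of 4 B cell markers and none of 6 neutrophil markers was called, although Cd22 had 5295 ± 436 (SD, n = 3) in thymus and 3404 ± 329 in testis. That Cd22 probe set read 2086 even in liver, its lowest tissue. The other Cd22 probe set was under the human probe set median in both organs, at 97.4 in thymus and 76.0 in testis. Of 7 macrophage and monocyte markers 2 rose, Clec7a (4.64-fold) and Ccr2, and 1, Clec4a2, fell. The summed macrophage markers ran from 1614 to 2087 in thymus and from 1556 to 2489 in testis. Of 8 endothelial markers 2 rose, Pecam1 and Icam2, and Tek and Emcn did not pass the test. Of 6 fibroblast and matrix markers Dcn and Lum rose, 2.94- and 2.79-fold. Thymus replicate 1 had 4321 for Dcn, against 2379 and 2418 on the other thymus arrays, and with quantile normalization Dcn was not called. Summed fibroblast markers were 6478, 3979 and 3686 in thymus and 2070, 1801 and 2471 in testis. The part of these cells in the adhesion and matrix results was not tested.

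The label of the testis arrays could not be checked by its own markers. Kit, the 1 measured germ cell marker, had 303.9, 276.9 and 251.3 in thymus and 220.0, 248.6 and 353.4 in testis, and the arrays overlapped. None of 4 Sertoli cell markers was called: Amh, the hormone of Sertoli cells, was 342.2 ± 40.3 (SD, n = 3) in thymus and 288.3 ± 9.0 in testis, and Gdnf, Kitl and Dhh differed by -0.45, -0.04 and -0.16 on the log2 scale. No Leydig cell marker was among the measured genes. For thymus, the T cell and stroma markers Ccl25, Ccr9, Cd27 and Ly75 were called and had their highest mean of the 9 tissues there. Il7 was also highest in thymus but was not called. Cd2, Il7r, Ccr7 and Ccl21b were highest in lymph node and Cxcl12 in spleen. These markers do not set thymus apart from those organs.

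Among the sialyltransferases, 3 of 18 were called, a share near the 16.9% called in either direction over all genes. St6galnac2, which adds sialic acid in alpha2,6 linkage to the GalNAc of O-glycans, had 107.5, 103.7 and 104.1 in thymus against 1910, 4352 and 4905 in testis. It was lower by -5.03 ± 0.21 on the log2 scale, 32.8-fold (adjusted p = 5.81e-16), and 50.1-fold with quantile normalization. The thymus arrays were under the human probe set median, so the size of the fold is uncertain. Testis replicate 1 had less than the other testis arrays, yet far more than any thymus array, and without that array the difference was -5.46. St8sia4, which builds polysialic acid, had 855.5, 725.2 and 609.9 in thymus and 73.41, 67.94 and 68.49 in testis (10.3-fold higher, adjusted p = 8.03e-14). Testis had the lowest St8sia4 level of the 9 tissues, and the highest was in bone marrow. St6gal1, which caps N-glycans with alpha2,6-linked sialic acid, rose to 527.1, 440.3 and 450.4 in thymus, against 177.3, 214.8 and 241.7 in testis (2.25-fold), but its other probe sets differed by 0.33 and 0.75 on the log2 scale, and it was not called with the probe sets averaged (0.75).

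None of the 6 alpha2,3-sialyltransferases was called, and 1 of 7 alpha2,6- and 1 of 5 alpha2,8-enzymes was called higher, with 1 alpha2,6-enzyme lower. St3gal2 had 0.67 and St3gal6 0.47 on the log2 scale, and St3gal5, the GM3 synthase, had -0.32. St8sia3 differed by -0.77, at 612.6 ± 61.4 (SD, n = 3) in thymus and 1041 ± 66 in testis, a difference that passed the p threshold (limma, adjusted p = 7.82e-07) but missed the size threshold. With quantile normalization St8sia3 was called, and the lower genes were then 2 of 7 alpha2,6- and 1 of 5 alpha2,8-enzymes. St6galnac5 had 673.6, 707.0 and 732.9 in thymus and 758.7, 1974 and 863.2 in testis, where replicate 2 stood far above the rest.

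Members of the Galnt family divided between the organs. Of 9 measured mucin O-glycan enzymes, 3 rose and 1 fell, with a median of 0.45, where over all genes 13.4% rose and 3.49% fell. Galnt3 fell, with 182.8, 240.3 and 215.4 in thymus and 1825, 2025 and 1894 in testis (-3.18 ± 0.17 on the log2 scale, adjusted p = 6.43e-14). Its thymus level stood at the human probe set median, and testis was the highest of the 9 tissues, 2.03 times above kidney. Galnt2, Galnt7 and Galnt1, members of the same family with different substrate preferences, rose 3.35-, 3.07- and 2.72-fold. Galnt2 read 638.7, 562.7 and 575.8 in thymus against 172.7, 177.6 and 179.4 in testis. Galnt7 gave 926.8, 693.9 and 763.3 in thymus and 232.0, 252.5 and 290.8 in testis. Thymus had the highest mean of the 9 tissues for both, and no arrays overlapped. Galnt1 had 422.7 ± 22.7 (SD, n = 3) in thymus and 160.6 ± 46.2 in testis. Gcnt3, a branching enzyme, had -0.96 on the log2 scale and the core enzyme C1galt1 0.45, and neither was called, though Gcnt3 was with quantile normalization. Galnt4 and Galnt6 were not called either. Galnt6 was called higher with array weights (1.03 on the log2 scale) and without thymus replicate 1 (1.04).

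**Figure D3:**
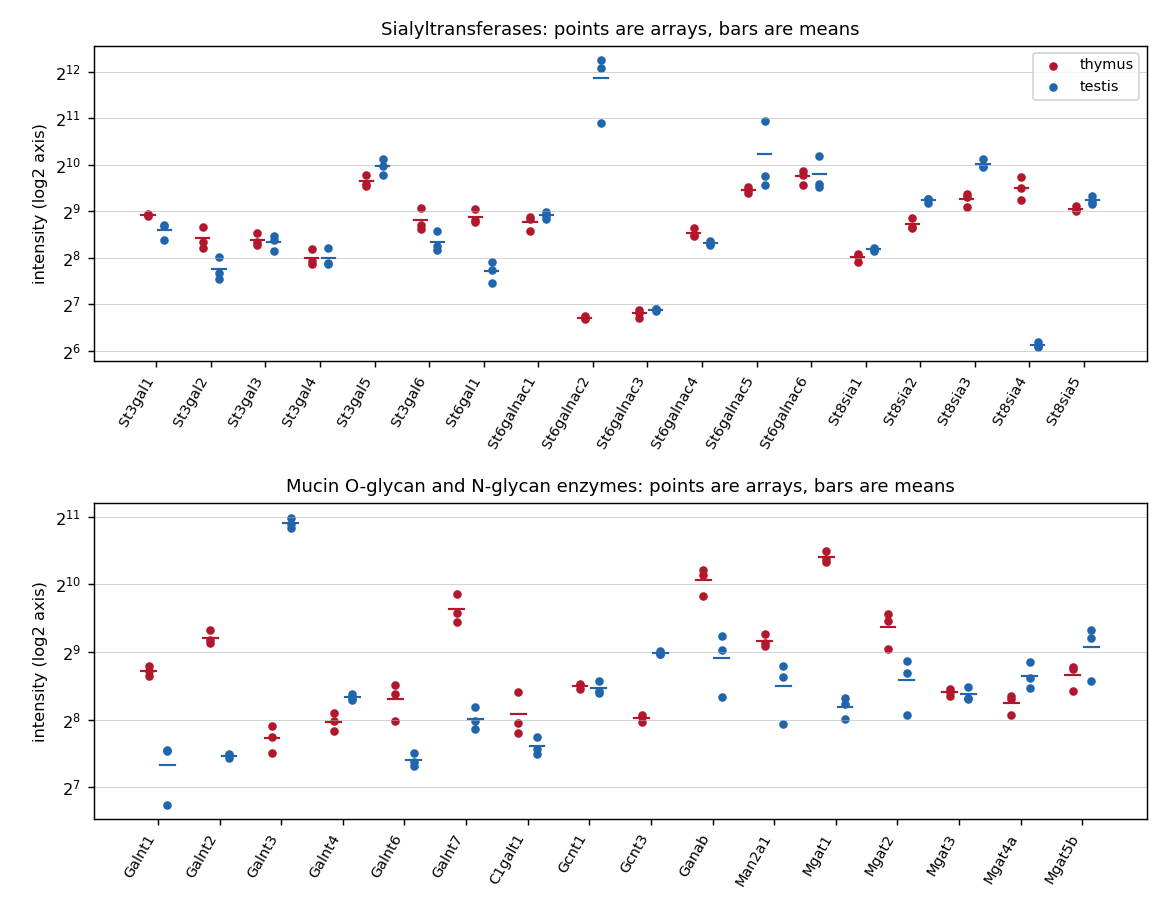
Intensity on a log2 axis for the 18 sialyltransferases (upper panel) and the mucin O-glycan and N-glycan enzymes (lower panel), with the 3 thymus arrays (red) left of the 3 testis arrays (blue) for each gene, and short lines at the means. St6galnac2 and Galnt3 stand out with high testis points, and St8sia4, Galnt2, Galnt7 and Mgat1 with thymus points above all testis points.

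Other glycan enzymes showed changes in single members. Mgat1, which opens the way to complex N-glycans, had 1436, 1280 and 1327 in thymus against 257.8, 318.7 and 301.7 in testis (4.62-fold). With Ganab, a glucosidase of the endoplasmic reticulum (2.27-fold), it made up the 2 of 7 N-glycan genes that rose, where 13.4% rose over all genes. No N-glycan gene fell (median 0.71). Ganab was not called without testis replicate 1, at 0.92 on the log2 scale. Of 11 fucosyltransferases only Fut11 was called, at 2.01-fold, and it lost the call in 5 of 16 alternative settings. Pofut1, which adds O-fucose to Notch, had -0.39 and was not called. Among 16 enzymes of lactosamine chains, B3gnt2 (3.04-fold) and B4galt1 (2.72-fold) rose and B3gnt4 fell 2.01-fold, where over all genes 13.4% rose and 3.49% fell. The other B3gnt2 probe set differed by 0.69 on the log2 scale, and the call of B3gnt4 held in 12 of 16 alternative settings. Among 13 glycosphingolipid enzymes, B4galnt1, the GM2 synthase (2.64-fold), and Ugcg, the glucosylceramide synthase (2.30-fold), rose. B3galnt1, which makes globoside, and Ugt8a, the galactosylceramide synthase, fell by 1.72 and 1.54 on the log2 scale. Over all genes, 13.4% rose and 3.49% fell. Ugt8a was dim on all 6 arrays and lost its call when values under 64 were raised to 64 (-0.18, adjusted p = 0.169).

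Ogt attaches single GlcNAc residues to proteins of nucleus and cytoplasm. It measured 3455, 1886 and 1888 in thymus, against 201.5, 217.6 and 188.1 in testis (11.4-fold, adjusted p = 2.85e-14). Thymus had the highest mean of the 9 tissues and testis the lowest, with thymus arrays overlapping those of lymph node. A second Ogt probe set differed by 2.06 on the log2 scale, in the same direction, and averaging the probe sets gave 6.90-fold. Of 27 enzymes of glycosaminoglycan chains Hs6st1, a heparan sulfate 6-O-sulfotransferase, rose 4.28-fold and Ndst3, an N-deacetylase and N-sulfotransferase of heparan sulfate, fell by 1.11 on the log2 scale. With quantile normalization 3 of the 27 were lower. Of 22 proteoglycan core proteins 4 rose and none fell, where over all genes 13.4% rose and 3.49% fell. Those that rose were Srgn, the proteoglycan of blood cell granules (5.95-fold), Dcn, Lum and Cd44.

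Of 25 genes that make or transport nucleotide sugars, 4 rose and 4 fell, with a median of 0.23, where over all genes 13.4% rose and 3.49% fell. Ugdh, which makes UDP-glucuronic acid, had 878.8, 765.8 and 680.3 in thymus and 108.2, 135.6 and 125.7 in testis (6.28-fold). Galt rose 2.78-fold, Papss1 2.65-fold and Cmas, which activates sialic acid, 2.30-fold. Cmas lost its call with quantile normalization (0.72 on the log2 scale) and without thymus replicate 1 (0.998). Mpi, which interconverts fructose and mannose phosphates, fell by 2.16 on the log2 scale, with 398.9, 340.9 and 306.4 in thymus and 1377, 1345 and 1989 in testis. Gfpt1, the first enzyme of UDP-GlcNAc synthesis, fell by 1.86, with 256.1, 228.9 and 259.4 in thymus and 668.1, 946.7 and 1158 in testis. Slc35a3, a UDP-GlcNAc transporter, fell by 1.63. For all 3, every thymus array was below every testis array.

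Hexokinase 1, Hk1, was the remaining one of the 4, and its testis arrays differed widely. It read 477.4, 509.2 and 615.3 in thymus and 493.7, 7940 and 3201 in testis. Testis replicate 1 lay within the thymus range, while the other testis arrays were far above it. The difference was -2.13 ± 0.50 on the log2 scale (limma, adjusted p = 0.00126), and it was -3.25 without testis replicate 1 and -1.24 without testis replicate 2. With the 6 arrays fitted alone, the adjusted p was 0.094. A second Hk1 probe set gave -1.82.

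Of 20 lysosomal glycan degrading enzymes, 5 rose and 2 fell, with a median of 0.14, where over all genes 13.4% rose and 3.49% fell. The called ones were Ctsa (5.15-fold), the protective protein of sialidase, Man2b1 (3.31-fold), the sialidase Neu1 (3.28-fold) and Gusb (3.16-fold), with Manba (2.21-fold) named after its values were seen. Neu1 had 343.1, 343.6 and 313.1 in thymus against 100.9, 98.77 and 104.7 in testis. Galc and Arsa, which break down galactosylceramide and sulfatide, fell by 1.74 and 1.29 on the log2 scale. Manba was not called without testis replicate 1, at 0.87 on the log2 scale, and its other probe set differed by 0.48. Of 4 galectins and 6 Siglecs, none was called. Of 29 C-type lectins and collectins 3 rose, Ly75, Clec7a and the activation antigen Cd69 (2.99-fold), and Clec4a2 fell. These shares were near those over all genes, 13.4% and 3.49%.

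**Figure D4:**
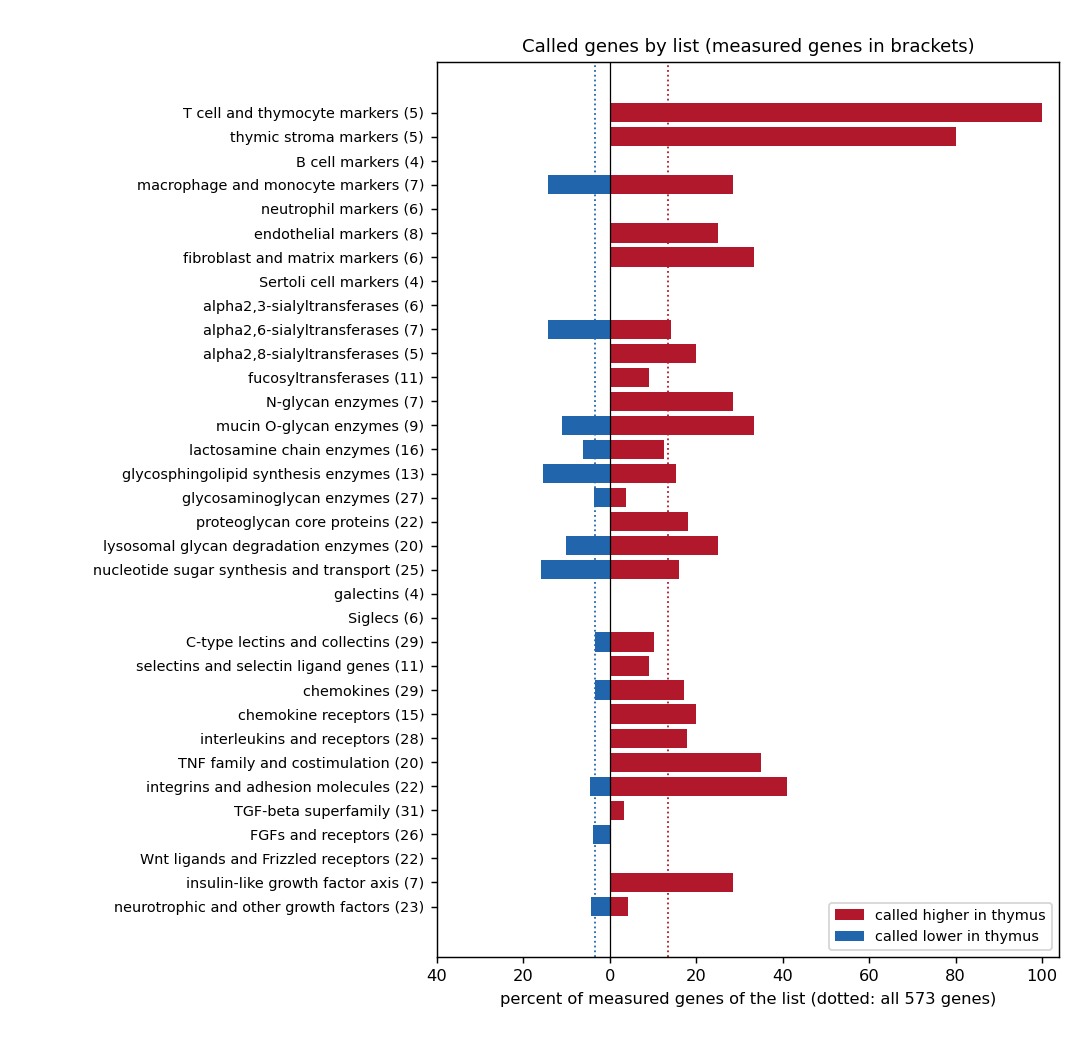
Percent of the measured genes of each list that were called higher in thymus (red bars, to the right of 0) or lower in thymus (blue bars, to the left of 0), with the number measured in brackets and dotted lines at the shares over all 573 genes (13.4% and 3.49%). The T cell and thymic stroma lists have the longest red bars, 5 of 5 and 4 of 5 genes, and the Wnt, galectin, Siglec, B cell and neutrophil lists have none.

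The remaining genes with more signal in testis belong to several classes. Itgae, the alpha chain that binds E-cadherin, had 591.7, 485.6 and 457.5 in thymus and 3669, 2050 and 2513 in testis (-2.39 ± 0.16 on the log2 scale, adjusted p = 5.46e-12). In the RefSeq annotation the gene Haspin lies wholly inside Itgae, and which transcript this probe set reads was not tested. Muc3, a membrane mucin, gave 96.93, 109.5 and 85.25 in thymus and 654.4, 360.1 and 657.0 in testis (-2.47 on the log2 scale), and the next highest tissue, liver, had 113.2. Ugt1a6a, a glucuronosyltransferase, had 216.8, 137.7 and 123.7 in thymus against 849.9, 824.3 and 989.2 in testis (-2.52 on the log2 scale). Several genes of the Ugt1a family share its locus, and the gene Dnajb3 lies inside it. Whether this probe set reads any of them was not tested. Ccl27a fell by 1.73 on the log2 scale, its locus overlaps Il11ra1, and its testis arrays overlapped those of brain. Among the other called genes named here, Ctsa, B4galnt1, B3gnt4, Cxcl10 and Ilk also overlap other protein-coding genes. Which transcripts their probe sets read was not tested.

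Phactr1 and Clec4a2 were brighter on testis replicate 1 than on the other testis arrays. Phactr1, a regulator of protein phosphatase 1 and actin, had 462.7, 429.7 and 429.8 in thymus and 4230, 1385 and 1721 in testis (-2.29 on the log2 scale, and -1.81 without that array). Clec4a2, a C-type lectin of macrophages and dendritic cells, had 100.5, 115.4 and 89.20 in thymus and 1121, 364.9 and 473.4 in testis (-2.52, and -2.04 without that array). Its other probe set differed by 0.01, so the probe sets disagree. Averaging them gave a 2.38-fold difference.

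Testis replicate 1 was compared with the other testis arrays gene by gene. It lay at least 1 on the log2 scale from the mean of the other pair for 7 genes, while each of the other 5 arrays did so for 0 to 3 genes. It was below them for Hk1 (-3.35), Ddost (-1.30), St6galnac2 (-1.27), Ybx1 (-1.25) and Gm2a (-1.11) and above them for Phactr1 (1.45) and Clec4a2 (1.43). Ybx1, a protein that binds DNA and RNA, had 6594, 4741 and 4548 in thymus and 4537, 13576 and 8626 in testis. It was not called (-0.63, limma, adjusted p = 0.0809), and without testis replicate 1 it was called lower, at -1.05. Leaving the array out also ended the calls of Manba, Ganab, Ilk and B3gnt4 and added those of Gps2, Xylt1, Junb, Cxcl9 and Ifnar2. Of the genes in this paragraph, those outside the glycan enzyme lists and the largest differences were chosen after their values were seen.

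**Figure D5:**
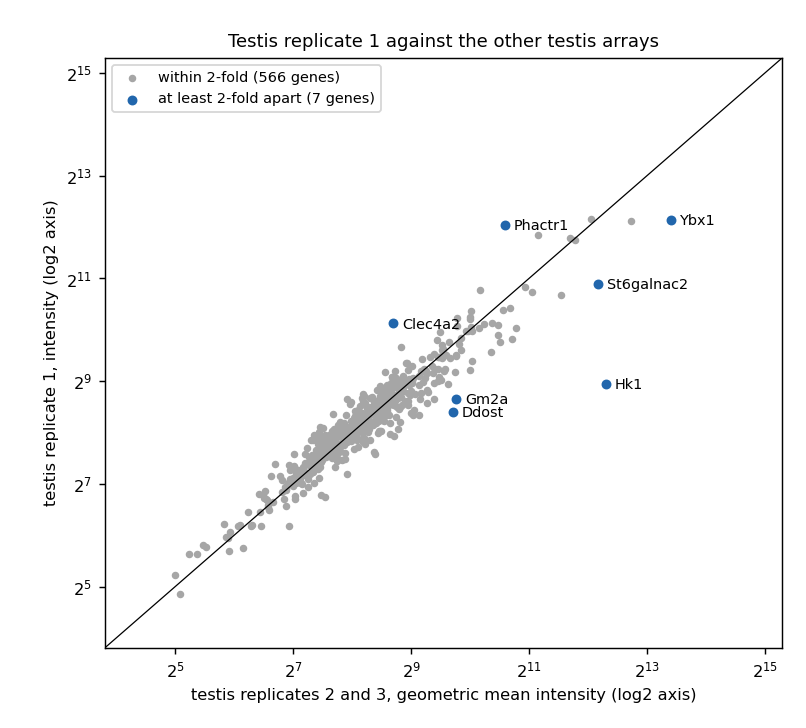
Intensity of each of the 573 genes on testis replicate 1 (vertical axis) against the geometric mean of testis replicates 2 and 3 (horizontal axis), both log2 axes. The 7 genes at least 1 apart on the log2 scale are blue and named: Hk1 lies farthest below the diagonal, and Phactr1 and Clec4a2 lie above it.

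Some genes had nearly equal intensity in the organs. Fzd5, a Wnt receptor, had 429.0 ± 33.6 (SD, n = 3) in thymus and 428.3 ± 20.1 in testis. Itga5, the fibronectin receptor chain, had 328.5 ± 25.2 in thymus and 328.1 ± 32.0 in testis. Il3ra, Itga2b and Npl, which completed the 5 smallest differences among genes above the median level, differed by less than 0.01 on the log2 scale. Of the 476 genes not called, 154 passed the p threshold with a difference under 1, and 108 had both organ means under the human probe set median.

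Thymus had the highest mean of the 9 tissues for 15 of the 77 higher genes and testis the lowest for 39, where over all 573 genes thymus was highest for 37 (6.46%) and testis lowest for 79 (13.8%). For the 20 lower genes, testis had the highest mean for 12 and thymus the lowest for 2, Ndst3 and B3gnt4, where over all genes testis was highest for 82 (14.3%) and thymus lowest for 38 (6.63%). The calls used these same levels, so the shares are a description. For Itgb2 bone marrow was highest and testis lowest, while for St6galnac2 testis had 3722 ± 1594 (SD, n = 3) and the next tissue, kidney, 614.4 ± 59.2. Mpi and Gfpt1 had 1570 and 924.1 in testis, with the next tissue at 469.9 (brain) and 281.8 (liver).

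Thymus and testis together were also set against the other 7 tissues. By the same thresholds the mean of thymus and testis was called higher than that of the other 7 for 12 genes (2.09%). It was called lower for 18 (3.14%), together 5.24% of the genes. A gene high in testis alone can pass, since the levels of the organs are averaged. Among the 12, both organ means were above all 7 other means for Ccl25 alone, with 2794 in thymus, 193.5 in testis and at most 164.0 elsewhere (2.39 on the log2 scale). The testis level of Ccl25 lay under the human probe set median. Among the 18, both means were below all 7 for Msmo1 alone, an enzyme of cholesterol synthesis, with 324.6 in thymus, 271.8 in testis and at least 362.8 elsewhere (-1.11 on the log2 scale). Over all genes, called or not, both organ means on the log2 scale lay above the other 7 for 7 genes and below them for 6. One of the 7 was Gps2, named after its values were seen, with 355.3 in thymus, 697.0 in testis and at most 346.1 elsewhere, a difference of 0.97 that just missed the size threshold. St6galnac2, Galnt3, Muc3, Itgae, Mpi, Hk1, Gfpt1 and Ccl27a were also among the 12, and all of them were called lower in thymus than in testis. St6galnac2 had 105.1 in thymus and 3722 in testis.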

How the data were processed

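The authors deposited linear intensities, 1 value for each of 1813 probe sets on each of 27 arrays. How probes were summarised, corrected for background and scaled is not given in the sources used here. Per the labels, each sample was total RNA labelled with biotin. Names came from the platform annotation (1563 probe sets with 1 symbol, 2 with several, 248 with none), and the 702 probe sets matched to mouse genes gave 573 genes, of which 122 had several probe sets and were read by the brightest. No control or human probe set was tested. Intensities under 16 were raised to 16 (2 values, none on the thymus and testis arrays) and log2 was taken. limma 3.58.1 in R 4.3.3 (lmFit, eBayes) was fitted over all 27 arrays with 1 coefficient per tissue, and p-values were adjusted by Benjamini-Hochberg over the 573 genes. Folds are powers of 2 of the log2 differences; means and SDs are of linear intensities.

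On simulated data for 573 genes, every gene given a log2 change of 1.5, 2 or 3 was called, and no gene given 0.5 and none of 373 unchanged ones. The values were normal, with each gene's own mean and spread, and held no array that stood apart and no shift of scale. No change between 0.5 and 1.5 was tried, so the result says little about calls near the threshold. The genes, lists and comparison were chosen with earlier results of these data known. Genes were named by rule: the 15 largest called differences each way with arrays that do not overlap, the 5 smallest, all members of the marker, sialyltransferase, fucosyltransferase, mucin O-glycan and N-glycan lists, and up to 4 called members each way of the other lists.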

Additional observations from a re-analysis of the deposited data

How the results depend on the processing

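Across 16 alternative settings (scaling, floor, filter, choice of probe set, variance model, array weights and arrays left out), the number of genes higher in thymus than in testis ran from 71 to 84, against 77. The number of lower genes, 20, became 35 with quantile normalization, which kept all 20, and 12 when the lowest 191 genes were left out, which removed 8 of the 20 from the test. Leaving out 1 array at a time gave 73 to 81 higher and 19 to 22 lower genes, and 8 to 13 higher and 16 to 23 lower genes for both organs against the other 7 tissues. The thymus and testis samples share only their replicate numbers, whose deviations correlated at 0.091, 0.022 and -0.195, and a fit with the replicate block gave the same 77 and 20 genes, and 12 and 18 for both organs. Of 75 called genes that were named by rule, 64 kept the call under every setting run. The 11 that lost it in at least 1 were Ugt8a, Ccr2, Dcn, St6gal1, Fut11, Ganab, B3gnt4, Cmas, Hk1, Fgf12 and Lif. No call of a gene named by rule reversed. Some called genes named after their values were seen also lost the call in at least 1 setting. Ilk kept it in 11 of 16, Tnfrsf1b in 12, Smc3 in 13, Il10ra and Manba in 14 and Psmb3 in 15. Folds rose by over 1.5 times with quantile normalization for St6galnac2 (50.1), Galnt3 (14), Phactr1 (7.51), Mpi (6.83) and Ccl27a (5.29), and fell with a floor of 64 for Ugt8a (1.13). The cause of these shifts was not tested.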

Other observations

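Several genes outside the gene lists also differed, and apart from Btg2, one of the 15 largest rises, they were named after their values were seen. Btg2, an antiproliferative gene, had 5202, 3738 and 4164 on the thymus arrays and 332.7, 313.4 and 306.9 on the testis arrays (13.6-fold), and thymus was the highest and testis the lowest of the 9 tissues. Hmgn2, a nucleosome-binding protein, gave 5501, 4314 and 4054 in thymus against 781.4, 660.3 and 833.1 in testis (6.07-fold). Ifngr1, a chain of the interferon gamma receptor, was 6.62-fold higher. Its thymus mean, 3747, was close to those of lung (3531) and lymph node (3401), and thymus arrays overlapped those of lung. Smc3, a subunit of cohesin, which holds sister chromatids together in mitosis and meiosis, was 2.18-fold higher in thymus. It had 1805 ± 346 (SD, n = 3) in thymus and 823.7 ± 107.2 in testis. Its other probe set differed by 0.71 on the log2 scale, and the call held in 13 of 16 alternative settings. Psmb3, a proteasome subunit, was 2.72-fold higher, with testis the lowest of the 9 tissues. Its thymus mean, 2285, was the highest, but bone marrow had 2116 and the arrays of these tissues overlapped.

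Thymus replicate 1 lay at least 1 above the other thymus arrays on the log2 scale for 3 genes, among them Aldoa, the glycolytic aldolase, which had 5740, 1929 and 1878 in thymus and 1634, 3152 and 2821 in testis.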
